A study of Homo sapiens with 9 samples.

Results

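Polyamine synthesis genes and the antizymes that restrain them were followed in A375, an established human melanoma cell line, after knockdown of SPANX, a family of X-linked cancer-testis genes. The group was fixed by 10 gene symbols (OAZ1, OAZ2, AZIN1, ODC1, AMD1, SRM, SMS, SAT1, SMOX and PAOX) among 60420 gene IDs. Of the 10, 9 were among the 13825 genes tested, and PAOX was listed at 0 in every library. The study compared 2 SPANX knockdowns, labelled SPANX KD 86 and SPANX KD 87 and called construct 86 and construct 87 here, with a control labelled EV, a name the labels do not spell out. Each group held 3 libraries of 3' end reads, made from RNA taken 7 days after the knockdown. All cells were of this 1 line, and the labels give neither the make of the knockdown agents nor whether replicates were separate cultures. The p-values reflect the spread among libraries within groups, pooled over the 3 groups and moderated across genes, and that spread may be technical. The 10 genes were selected on values of these libraries: they were chosen by pathway, with the lower OAZ1 level under both constructs, and so the fold changes against EV, already known. Their values against EV are therefore a description with no test. The comparison of construct 87 with construct 86 is tested. It is the difference of the same 2 fold changes, so its p-values are not independent of that choice either. The genes listed above 0 also differed along the line of construct 87. Of the IDs, 400 were above 0 only among EV and construct 86 libraries and 453 only among construct 87 libraries. Whether this difference bears on the comparisons with construct 87 was not tested.

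Polyamines (putrescine, spermidine and spermine) are small positively charged molecules that bind nucleic acids and that growing cells need. ODC1, ornithine decarboxylase, makes putrescine and is the rate-limiting enzyme; AMD1 makes the decarboxylated S-adenosylmethionine that SRM and SMS use to build spermidine and spermine. Antizymes bind ODC1, send it to the proteasome without ubiquitin and restrain polyamine uptake. AZIN1, an ODC1 relative with no decarboxylase activity, binds antizyme in its place. SAT1 acetylates polyamines for export or breakdown, PAOX oxidises the acetylated forms, and SMOX oxidises spermine directly.

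Antizyme messages are read through a programmed +1 frameshift that polyamines stimulate. The stretch around the shift is shown for both antizymes because it is what sets them apart from other genes of the group. It was read from the GENCODE v29 transcripts of OAZ1 (chromosome 19) and OAZ2 (chromosome 15), and the capitals mark the last codon of the initial frame and the stop codon at which ribosomes shift.
OAZ1: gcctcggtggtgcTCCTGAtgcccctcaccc
OAZ2: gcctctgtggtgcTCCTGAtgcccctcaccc
The 2 stretches shared 30 of 31 bases. Reads were counted per gene from 3' ends, so they measure message level and carry no information on how often the shift was made.

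Reads were recovered as estimates from the deposited values. Summed over gene IDs they were 11310656 to 15564042 with construct 86, 12670584 to 15268072 with construct 87 and 12321375 to 14554151 with EV. In any library the 9 tested genes had between 310 reads (SAT1) and 9585 reads (OAZ1). SPANXC, the main detected SPANX copy, had 101.7, 35.14 and 42.21 normalised reads with construct 86 and 25.22, 17.98 and 33.6 with construct 87, against 400.0, 149.8 and 510.9 with EV. Its near-identical copy SPANXD reached at most 0.9686 with construct 86 and 7.127 with construct 87, against 27.4 to 102.2 with EV, and reads cannot be assigned to these copies with certainty. Normalised reads are reads scaled to a common library size. Of 11 melanoma and neural crest markers 8 were tested, while the pigment genes TYR, DCT and MLANA were listed at 0. Their summed level was 75255 to 94040 with construct 86, 70327 to 84752 with construct 87 and 43896 to 66471 with EV, most of it VIM (means of 61754, 55710 and 41151), a gene of mesenchymal cells at large. Within the list, SOX10 averaged 15719 with construct 86, 9667 with construct 87 and 3593 with EV, and AXL 3289, 9145 and 6976. In the same order, S100A1 averaged 1509, 700 and 181, NGFR 3527, 2856 and 1108, and S100B 248, 406 and 153. MITF averaged 566, 730 and 586, and PMEL 10.4, 24.1 and 15.6. The endothelial markers VWF and CDH5, the epithelial markers CDH1 and EPCAM and the leukocyte markers PTPRC and CD3E were listed at 0. The epithelial keratins were detected: KRT18 averaged 1842, 5156 and 7659 and KRT8 283, 1360 and 1162 with construct 86, construct 87 and EV. LYZ averaged 282, 523 and 209, and the summed level of 4 fibroblast markers was 496 to 1000, 327 to 524 and 294 to 385, in the same order of groups. Whether any of these lists bears on the polyamine genes was not tested. In bulk RNA, fewer cells expressing a gene and less RNA per cell cannot be told apart.

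OAZ1, the main and broadly expressed antizyme, was lower with both constructs. It had 2421, 2011 and 2955 normalised reads in the construct 86 libraries (2462 ± 473, SD, n = 3) and 1654, 2106 and 2862 in the construct 87 libraries (2207 ± 610, n = 3). The EV libraries had 10651, 5209 and 7371 (7744 ± 2740, n = 3). The highest knockdown library lay below the lowest EV library, and the SD among the EV libraries exceeded that of either construct. The log2 fold change against EV was -1.61 (SE 0.29, 95% interval -2.26 to -0.96) with construct 86, or 3.05-fold lower, and -1.79 (SE 0.29, -2.43 to -1.14) with construct 87, or 3.45-fold lower. Both values share the same 3 EV libraries. Construct 87 differed from construct 86 by -0.18 (-0.82 to 0.47, adjusted p = 0.706), and the interval leaves room for a difference of either sign.

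Short transcripts as a class were lower in the knockdown libraries, and OAZ1 is short. Its annotated transcripts had a median length of 1058.5 bases, at percentile 12.8 of the tested genes. When the tested genes were ranked by length into 4 equal bins, the median log2 fold change was -0.417 with construct 86 and -0.189 with construct 87 in the bin of shortest transcripts, and 0.338 and 0.172 in the bin of longest. With that trend removed from every library, OAZ1 stood at -1.27 with construct 86 and -1.65 with construct 87.

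OAZ2, a second antizyme with the same ODC1-binding function, parted from OAZ1 under construct 87. It had 620.9, 590.3 and 647.2 normalised reads with construct 86 (619 ± 28.5, n = 3) and 1761, 1459 and 1562 with construct 87 (1594 ± 154, n = 3). The EV libraries had 1713, 1185 and 1183 (1361 ± 306, n = 3). The construct 86 libraries lay apart from all others, and the construct 87 libraries overlapped the EV libraries. The log2 fold change against EV was -1.11 (SE 0.19, -1.54 to -0.69) with construct 86, or 2.16-fold lower, and 0.25 (SE 0.19, -0.18 to 0.67) with construct 87. Between constructs, OAZ2 was 2.56-fold higher with construct 87 (log2 1.36, 0.94 to 1.78, adjusted p = 0.000839) and stayed past the threshold of 0.05 whichever of the 9 libraries was left out.

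AZIN1, the antizyme inhibitor, was likewise lowest with construct 86. It had 2303, 2268 and 2731 normalised reads with construct 86 (2434 ± 258, n = 3), 3455, 3514 and 3700 with construct 87 (3556 ± 128, n = 3), and 3597, 3840 and 3874 with EV (3770 ± 151, n = 3). The construct 86 libraries were below all others, while construct 87 and EV overlapped. Against EV its log2 fold change was -0.64 (SE 0.16) with construct 86 and -0.08 (SE 0.16, -0.44 to 0.27) with construct 87. The level with construct 87 was 1.47-fold that with construct 86 (log2 0.55, 0.19 to 0.91, adjusted p = 0.0301). That call was kept in 4 of 9 fits that each left out 1 library, with adjusted p between 0.0246 and 0.124; it was lost without construct 86 replicate 1 or 2 and without each of the 3 construct 87 libraries.

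**Figure D1:**
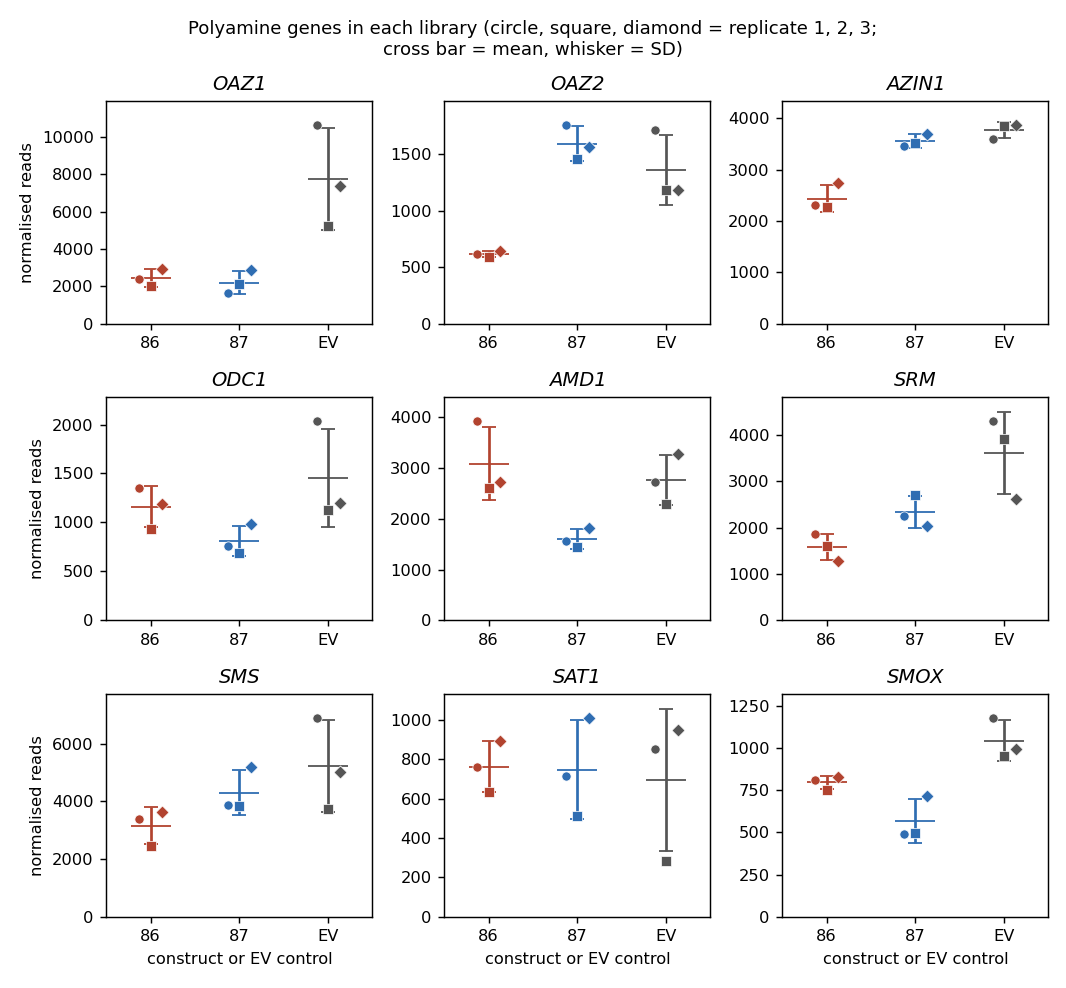
Normalised reads (y axis, from 0) of the 9 tested polyamine genes in each library, with construct 86 and construct 87 left of the EV control; each point is 1 library, the cross bar the mean and the whisker the SD of 3. OAZ1 and SMOX lie below all EV libraries with both constructs, and OAZ2, AZIN1, SRM and SMS only with construct 86. ODC1 and AMD1 do so only with construct 87, where the AMD1 libraries span 1442 to 1822.

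Of the biosynthetic enzymes, SRM (spermidine synthase) and SMS had their lowest means with construct 86, and ODC1 and AMD1 with construct 87. ODC1 had 1349, 937.2 and 1191 normalised reads with construct 86 (1159 ± 208, n = 3), 760.8, 690.2 and 979.5 with construct 87 (810 ± 151, n = 3), and 2034, 1130 and 1199 with EV (1454 ± 503, n = 3). The construct 87 libraries lay below the EV libraries, while construct 86 overlapped both. Relative to EV, ODC1 gave a log2 fold change of -0.29 (SE 0.26, -0.86 to 0.28) with construct 86 and -0.81 (SE 0.26, -1.38 to -0.24) with construct 87. Construct 87 against construct 86 gave -0.52 (-1.09 to 0.05, adjusted p = 0.17). With same-numbered libraries of the groups treated as blocks (the replicate block), the adjusted p was 0.0446.

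AMD1, S-adenosylmethionine decarboxylase, had 3925, 2615 and 2727 normalised reads with construct 86 (3089 ± 726, n = 3) and 1557, 1442 and 1822 with construct 87 (1607 ± 195, n = 3). The EV libraries had 2720, 2300 and 3271 (2764 ± 487, n = 3). Every construct 87 library was below every other library, and the construct 86 and EV libraries overlapped. Relative to EV, the log2 fold change of AMD1 was 0.15 (SE 0.22, -0.33 to 0.63) with construct 86 and -0.77 (SE 0.22, -1.25 to -0.29) with construct 87. AMD1 fell 1.9-fold with construct 87 relative to construct 86 (log2 -0.92, -1.4 to -0.45, adjusted p = 0.0108), and it passed in all 9 fits that each left out 1 library.

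SRM had 1856, 1599 and 1285 normalised reads with construct 86 (1580 ± 286, n = 3), 2244, 2713 and 2035 with construct 87 (2331 ± 347, n = 3), and 4295, 3910 and 2624 with EV (3610 ± 875, n = 3). The construct 86 libraries were below all others, and 1 construct 87 library was above the lowest EV library. The log2 fold change against EV was -1.18 (SE 0.23, -1.69 to -0.66) with construct 86, or 2.26-fold lower, and -0.61 (SE 0.23, -1.13 to -0.09) with construct 87. Construct 87 exceeded construct 86 by 0.57 (0.05 to 1.08, adjusted p = 0.101; with the replicate block, adjusted p = 0.0108).

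SMS, spermine synthase, had 3399, 2438 and 3644 normalised reads with construct 86 (3160 ± 637, n = 3), 3892, 3827 and 5211 with construct 87 (4310 ± 781, n = 3), and 6904, 3750 and 5010 with EV (5221 ± 1588, n = 3). All construct 86 libraries were below all EV libraries, by a margin of 3644 against 3750 at the nearest pair. The log2 fold change was -0.70 (SE 0.26) with construct 86 and -0.25 (SE 0.26, -0.82 to 0.33) with construct 87. The constructs differed by 0.45 (-0.12 to 1.03, adjusted p = 0.231).

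The promoters of these genes are shown because ODC1 and SRM were the synthesis genes with the E-box CACGTG, the sequence bound by MYC and related factors, in their windows, and because OAZ1 had the largest change. The sequences are from RefSeq on GRCh38.p14, 250 bases before to 50 bases after a start. Windows of 7 of the 10 genes were searched, and AZIN1 was left out of that search. Capitals mark CACGTG (which reads the same on both strands) in SRM and ODC1 and TATAAA in OAZ1. The TATAAA of OAZ1 begins 6 bases after the annotated start, and the other ODC1 window held 0 CACGTG. The windows are chr1:11059969-11060268 (minus strand) for SRM, chr2:10447963-10448262 (minus strand) for 1 of the ODC1 starts and chr19:2269236-2269535 (plus strand) for OAZ1.
SRM: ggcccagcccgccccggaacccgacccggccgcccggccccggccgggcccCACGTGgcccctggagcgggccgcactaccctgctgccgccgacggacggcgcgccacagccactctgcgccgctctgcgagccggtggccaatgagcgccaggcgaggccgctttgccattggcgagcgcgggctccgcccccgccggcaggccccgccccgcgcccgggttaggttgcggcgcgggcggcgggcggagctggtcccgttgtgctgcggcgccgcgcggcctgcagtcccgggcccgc
ODC1: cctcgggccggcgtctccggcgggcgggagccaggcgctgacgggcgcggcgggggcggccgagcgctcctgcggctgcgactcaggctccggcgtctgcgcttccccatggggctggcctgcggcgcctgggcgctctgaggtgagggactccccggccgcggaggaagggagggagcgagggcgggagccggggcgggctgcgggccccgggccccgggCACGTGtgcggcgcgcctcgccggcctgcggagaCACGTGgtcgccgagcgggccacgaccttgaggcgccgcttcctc
OAZ1: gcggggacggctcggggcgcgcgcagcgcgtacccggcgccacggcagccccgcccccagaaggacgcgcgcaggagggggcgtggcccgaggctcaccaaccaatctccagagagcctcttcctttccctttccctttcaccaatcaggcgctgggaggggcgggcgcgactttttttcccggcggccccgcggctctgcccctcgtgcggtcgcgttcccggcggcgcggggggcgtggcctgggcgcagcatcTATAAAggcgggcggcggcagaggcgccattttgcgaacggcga
Of the 10 windows of these 7 genes, 2 held CACGTG and 1 held TATAAA on either strand, against 7.26% and 11.5% of all 35116 windows in the source. The mean of SRM was lowest with construct 86 and that of ODC1 with construct 87, although neither gene passed between constructs without the block (adjusted p = 0.101 and 0.17). A match describes the letters in the window and says nothing of binding in these cells.

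The catabolic genes SMOX and SAT1 had unlike values. SMOX, spermine oxidase, had 807.8, 749.3 and 827.8 normalised reads with construct 86 (795 ± 40.8, n = 3), 489.7, 495.0 and 715.8 with construct 87 (567 ± 129, n = 3), and 1178, 950.9 and 993.8 with EV (1041 ± 121, n = 3). The 3 groups did not overlap. SMOX had a log2 fold change against EV of -0.38 (SE 0.20, -0.82 to 0.05) with construct 86 and -0.89 (SE 0.20, -1.33 to -0.46) with construct 87, or 1.86-fold lower. Construct 87 was lower than construct 86 by a log2 difference of -0.51 (-0.94 to -0.07, adjusted p = 0.0821). That adjusted p was 0.0266 with the replicate block and 0.038 with the length trend removed.

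SAT1, the acetyltransferase, had 759.4, 632.4 and 893.4 normalised reads with construct 86 (762 ± 131, n = 3), 716.7, 512.1 and 1011 with construct 87 (747 ± 251, n = 3), and 854.5, 283.2 and 950.7 with EV (696 ± 361, n = 3). The groups overlapped throughout, and EV replicate 2 held the lowest value. Against EV, SAT1 had a log2 fold change of 0.30 (SE 0.42, -0.63 to 1.23) with construct 86 and 0.23 (SE 0.42, -0.70 to 1.16) with construct 87. Without EV replicate 2 both signs turned, to -0.25 and -0.33. With the length trend removed the construct 86 value was 0.70, which passed the threshold when the replicate block was added and not without it. Between constructs the difference was -0.07 (-1.0 to 0.86, adjusted p = 0.924).

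PAOX, the acetylpolyamine oxidase, was listed at 0 in all 9 libraries. The authors' files list 45742 of the 60420 IDs at 0 throughout, so a 0 here may stand for a gene removed by a filter.

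**Figure D2:**
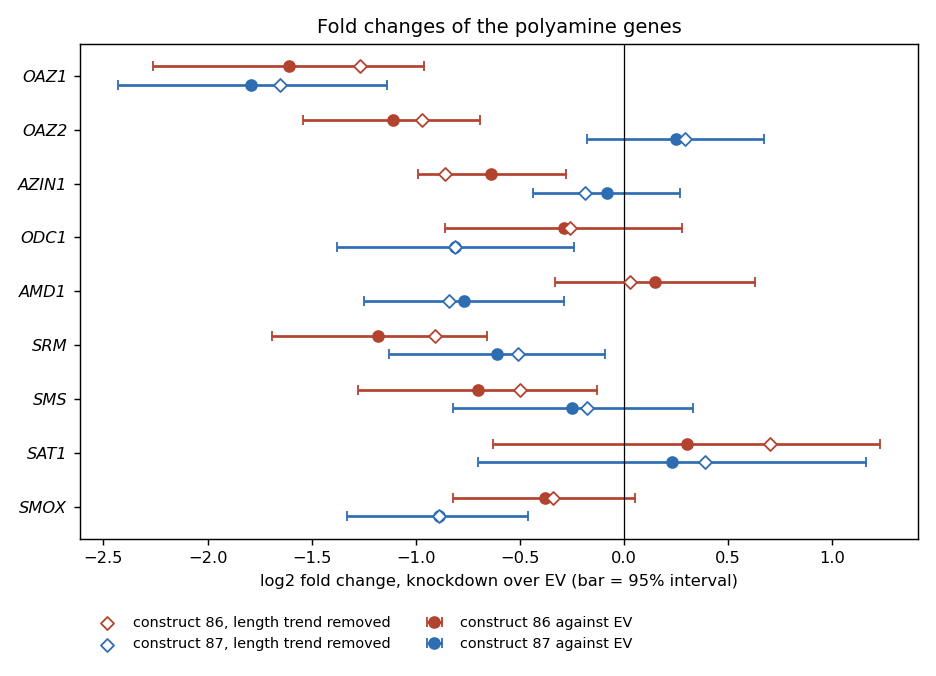
Log2 fold change of each tested polyamine gene over EV (x axis), with construct 86 above construct 87 in each row; filled circles carry the 95% interval and open diamonds show the value after the transcript length trend was removed. OAZ1 is the gene whose intervals lie farthest left with both constructs (-1.61 and -1.79), and OAZ2 sits at -1.11 with construct 86 and at 0.25 with construct 87.

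Counted over the group, 4 of the 9 tested genes (OAZ1, OAZ2, AZIN1 and SRM) passed below EV with construct 86 and 0 above it, where 17.6% of all genes tested passed lower. With construct 87, 3 of 9 (OAZ1, AMD1 and SMOX) passed below EV and 0 above, where 4.43% of all genes passed lower. Nothing is read from these counts, because the genes were chosen with results of the same comparisons known. The construct 87 count fell to 1 without EV replicate 1, construct 87 replicate 1 or construct 87 replicate 2, and AMD1 kept its call in only 2 of 9 such fits; without construct 86 replicate 2 the construct 86 call of AZIN1 was lost. Groups did not overlap, with the knockdown lower, for 6 of 9 genes with construct 86 (22.8% of all genes) and for 4 of 9 with construct 87 (14.0%); with the knockdown higher the counts were 0 and 0, beside 22.5% and 15.3% of all genes. With the replicate block, SMS joined the construct 86 genes (5 of 9) and ODC1 and SRM joined the construct 87 genes (5 of 9). The median log2 fold change over the 9 genes was -0.64 with construct 86 and -0.61 with construct 87, beside -0.04 and 0.00 over all genes.

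Between the constructs, OAZ2 and AZIN1 passed as higher and AMD1 as lower with construct 87, or 2 and 1 of 9 genes, where 12.7% of all genes passed higher and 12.9% lower. Groups did not overlap for 4 genes higher with construct 87 (OAZ2, AZIN1, SRM and SMS; 22.9% of all genes) and for 2 genes lower (AMD1 and SMOX; 22.4%). The replicate block raised the count of 3 to 6, adding SRM as higher and ODC1 and SMOX as lower. OAZ1 and SAT1 were the genes with the smallest differences, and their intervals of -0.82 to 0.47 and -1.0 to 0.86 do not show that the constructs acted alike on them.

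Ratios of 2 genes within a library do not depend on how libraries are scaled and describe the balance of antizyme, inhibitor and enzyme messages. They are given on the log2 scale relative to the EV mean. The OAZ1 to ODC1 ratio was -1.56, -1.3 and -1.09 with construct 86 (-1.32 ± 0.23, n = 3) and -1.28, -0.8 and -0.86 with construct 87 (-0.98 ± 0.27, n = 3), against -0.02, -0.2 and 0.22 with EV (SD 0.21). OAZ1 message was thus lower relative to ODC1 message in every knockdown library than in any EV library. The AZIN1 to OAZ1 ratio was 0.91, 1.15 and 0.86 with construct 86 and 2.04, 1.72 and 1.35 with construct 87, against -0.59, 0.54 and 0.05 with EV. Its groups did not overlap, and construct 87 was the highest. These ratios were not corrected for the length trend, and AZIN1 transcripts are long (percentile 74.1) where those of OAZ1 are short (12.8). With the trend removed, construct 86 gave log2 fold changes of -0.86 for AZIN1 and -1.27 for OAZ1. With construct 87 they were -0.19 and -1.65. Whether the construct 86 ratio stays apart from EV after that step was not tested. The OAZ1 to OAZ2 ratio averaged -0.5 ± 0.21 with construct 86 and -2.03 ± 0.49 with construct 87, with an SD of 0.29 among the EV libraries (n = 3 each); the nearest libraries were -0.28 with construct 86 and -0.33 with EV, so those groups overlapped. The AMD1 to ODC1 ratio was 0.44 ± 0.18 with construct 86 and 0.03 ± 0.09 with construct 87, within the EV range of -0.54 to 0.48 except for 2 construct 86 libraries at 0.58 and 0.52.

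**Figure D3:**
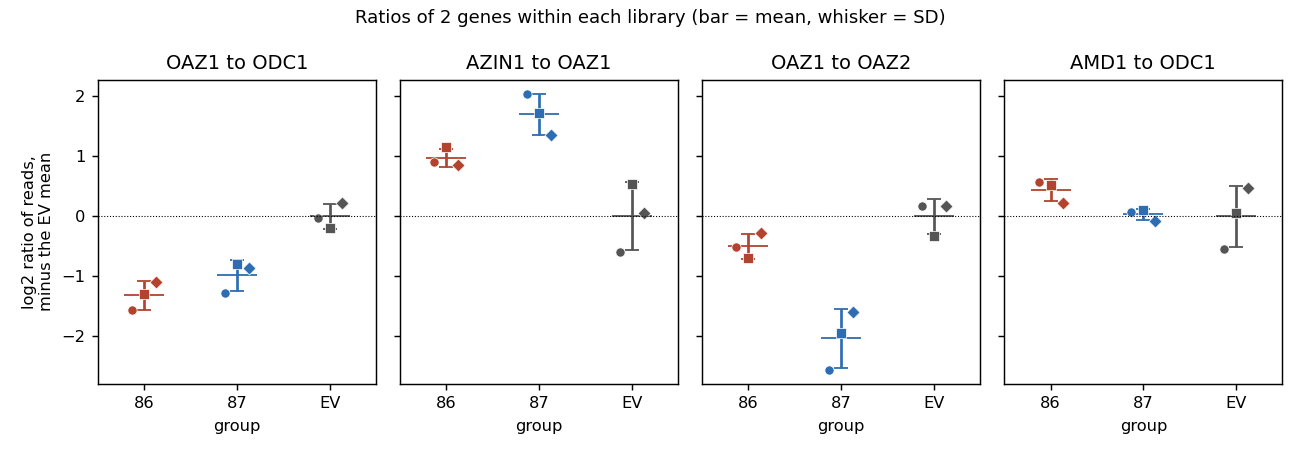
Log2 ratio of the reads of 2 genes in each library, minus the EV mean (y axis), for 4 pairs of polyamine genes, with construct 86 and construct 87 left of EV; circles, squares and diamonds are replicates 1, 2 and 3, the bar is the mean and the whisker the SD. The OAZ1 to ODC1 ratio lies below all EV libraries with both constructs, and the OAZ1 to OAZ2 ratio is lowest with construct 87 (-2.56 to -1.6).

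Across the 9 libraries, the genes whose log2 values were most like those of OAZ1 (Pearson r among 11319 genes averaging at least 5 CPM) were PSMG3 (0.987), UBE2C (0.975), EXOSC9 (0.973), ALDH2 (0.972), SLBP (0.972) and LYAR (0.97). PSMG3 is a proteasome assembly chaperone and UBE2C a mitotic ubiquitin-conjugating enzyme. Within the polyamine group, SMOX was the most like OAZ1 (r = 0.864, rank 320), followed by ODC1 (0.786), SMS (0.721), SRM (0.667), AZIN1 (0.498), AMD1 (0.429), OAZ2 (0.284) and SAT1 (0.069). These are descriptions over 9 libraries that share 3 group means, with no test.

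Genes around the pathway were taken from 5 lists written from textbook knowledge, 59 genes in all, of which 40 were tested; their adjusted p-values are over all genes and their levels are mean ± SD of 3 libraries. The lists, like the polyamine genes, were written with earlier results of these libraries known. Their calls, against EV or between constructs, are therefore not independent evidence of a direction. With construct 86, 7 rose and 10 fell, and with construct 87, 1 rose and 4 fell; with the replicate block the counts were 8 and 17 for construct 86 and 2 and 12 for construct 87. Over all genes tested, 18.0% rose and 17.6% fell with construct 86, and 5.92% rose and 4.43% fell with construct 87.

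Among genes that supply arginine and ornithine, 8 of 14 were tested; 2 fell with construct 86 (list median -0.60) and 1 with construct 87 (median -0.57), and 0 rose. With the length trend removed, 4 fell with construct 86 and 3 with construct 87. The transporters SLC7A1 (log2 -1.31 and -0.82) and SLC7A2 (-0.97 and -0.83) then passed with both constructs, which they did not in the main fit. For SLC7A1 the length step was not needed. The replicate block on its own moved its adjusted p from 0.0597 to 0.0016 for construct 86. For construct 87 the move was from 0.273 to 0.0262. SLC7A2 stayed above the threshold under the block, at 0.0874 for construct 86 and 0.083 for construct 87. ASS1 (argininosuccinate synthetase) had 9.686, 14.05 and 18.76 normalised reads with construct 86 and 11.56, 9.42 and 19.34 with construct 87, against 36.67, 31.06 and 36.65 with EV. Every knockdown library was below every EV library, and ASS1 fell with both constructs (log2 -1.28, adjusted p = 0.0255, and -1.36, adjusted p = 0.0484). ASL (argininosuccinate lyase), the next enzyme, fell with construct 86 to 129 ± 19.1 normalised reads (log2 -1.28, adjusted p = 0.00137) and had 270 ± 22.9 with construct 87 (log2 -0.21, adjusted p = 0.554), against 314 ± 52.9 with EV. It differed between the constructs (log2 1.07, adjusted p = 0.0043).

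In the methionine cycle and the salvage of methylthioadenosine, the by-product of spermidine and spermine synthesis, 14 of 18 genes were tested. With construct 86, 2 rose and 5 fell (median -0.34), and with construct 87, 2 fell and 0 rose (median -0.24). AHCY, which clears S-adenosylhomocysteine, fell to 1457 ± 86.9 normalised reads with construct 86 (log2 -1.0, adjusted p = 0.0016) and had 2565 ± 107 with construct 87 (log2 -0.18, adjusted p = 0.522), against 2921 ± 390 with EV. GOT1, a transaminase listed for the last salvage step, fell to 423 ± 45.1 with construct 86 (log2 -1.28, adjusted p = 0.000611) and had 771 ± 21.8 with construct 87 (log2 -0.41, adjusted p = 0.166; with the replicate block, adjusted p = 0.0459), against 1035 ± 166 with EV. Both genes had their lowest means with construct 86. ENOPH1, a salvage enzyme, had the other order, with 667 ± 58.1 with construct 86 (log2 -0.28, adjusted p = 0.29) and a fall to 413 ± 84.2 with construct 87, against 808 ± 74.9 with EV (log2 -0.98, adjusted p = 0.0124). ADI1, the dioxygenase that follows it, had 1381 ± 521 with construct 86 (log2 -1.16, adjusted p = 0.0165) and 1669 ± 439 with construct 87 (log2 -0.86, adjusted p = 0.109; with the replicate block, adjusted p = 0.00154), against 3085 ± 1102 with EV. Between constructs, 4 genes of the list passed. They were AHCY (log2 0.82, adjusted p = 0.00562), GOT1 (0.87, adjusted p = 0.00568), ENOPH1 (-0.71, adjusted p = 0.0233) and AHCYL1 (1.22, adjusted p = 0.00404), a relative of AHCY named after its values were seen. AHCYL1 had 987 ± 272 normalised reads with construct 86 and 2235 ± 63.3 with construct 87, against 1987 ± 402 with EV, and it fell with construct 86 (log2 -1.03, adjusted p = 0.0072). The 2 genes that rose with construct 86, also named after their values were seen, were AHCYL2 and MRI1. AHCYL2, another relative of AHCY, gave log2 1.19 (adjusted p = 0.00921), and MRI1 gave 0.49 (adjusted p = 0.0494).

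Of 13 genes linked to polyamine transport, 8 were tested; 3 rose and 1 fell with construct 86 (median 0.49), and 1 rose and 1 fell with construct 87 (median -0.18). Over the 7 genes averaging at least 5 CPM, the medians were 0.12 with construct 86 and -0.18 with construct 87. ATP13A3, a P5B-type ATPase of polyamine import, had 2447, 2774 and 2386 normalised reads with construct 86 and 2508, 2388 and 1722 with construct 87, against 825.6, 1644 and 949.6 with EV. All 6 knockdown libraries were above all EV libraries, and the gene rose with both constructs (log2 1.22, adjusted p = 0.00549, and 1.00, adjusted p = 0.0365). Its transcripts are long (median 7322 bases, percentile 95.4). With the length trend removed it stood at 0.77 with each construct (adjusted p = 0.00281 with construct 86 and 0.00888 with construct 87). GPC1, a heparan sulfate proteoglycan tied to polyamine uptake, rose with construct 86 (1868 ± 327, log2 0.90, adjusted p = 0.0313) and had 1360 ± 379 with construct 87 (log2 0.42, adjusted p = 0.375), against 1028 ± 357 with EV. CAV1, the main protein of caveolae, fell with construct 86 (4584 ± 2419, log2 -0.98, adjusted p = 0.033) and had 4654 ± 360 with construct 87 (log2 -0.84, adjusted p = 0.115; with the replicate block, adjusted p = 0.0171), against 8444 ± 1800 with EV. Its construct 86 libraries of 2914 to 7359 overlapped the EV libraries of 7220 to 10511. SLC12A8, a cation-chloride cotransporter family member, rose with construct 86 (127 ± 43.7, log2 1.07, adjusted p = 0.0352) and had 52.7 ± 17.3 with construct 87 (log2 -0.18, adjusted p = 0.777), against 58.7 ± 13.4 with EV. It was lower with construct 87 than with construct 86 (log2 -1.24, adjusted p = 0.0242). SLC47A1, an exporter of organic cations named after its values were seen, had 83.3, 68.51 and 39.86 normalised reads with construct 86 and 12.61, 9.42 and 12.22 with construct 87, against 31.11, 29.23 and 40.96 with EV. Its construct 87 libraries lay below all others, while 1 construct 86 library lay within the EV range. It fell with construct 87 (log2 -1.48, adjusted p = 0.0245; kept in 5 of 9 fits that each left out 1 library, and lost without EV replicate 1 or 3 and without construct 87 replicate 1 or 2) and gave 0.85 with construct 86 (adjusted p = 0.0794; with the replicate block, adjusted p = 0.0462). It was 5.04-fold lower with construct 87 than with construct 86 (log2 -2.33, adjusted p = 0.00111), and that call held in all 9 such fits.

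**Figure D4:**
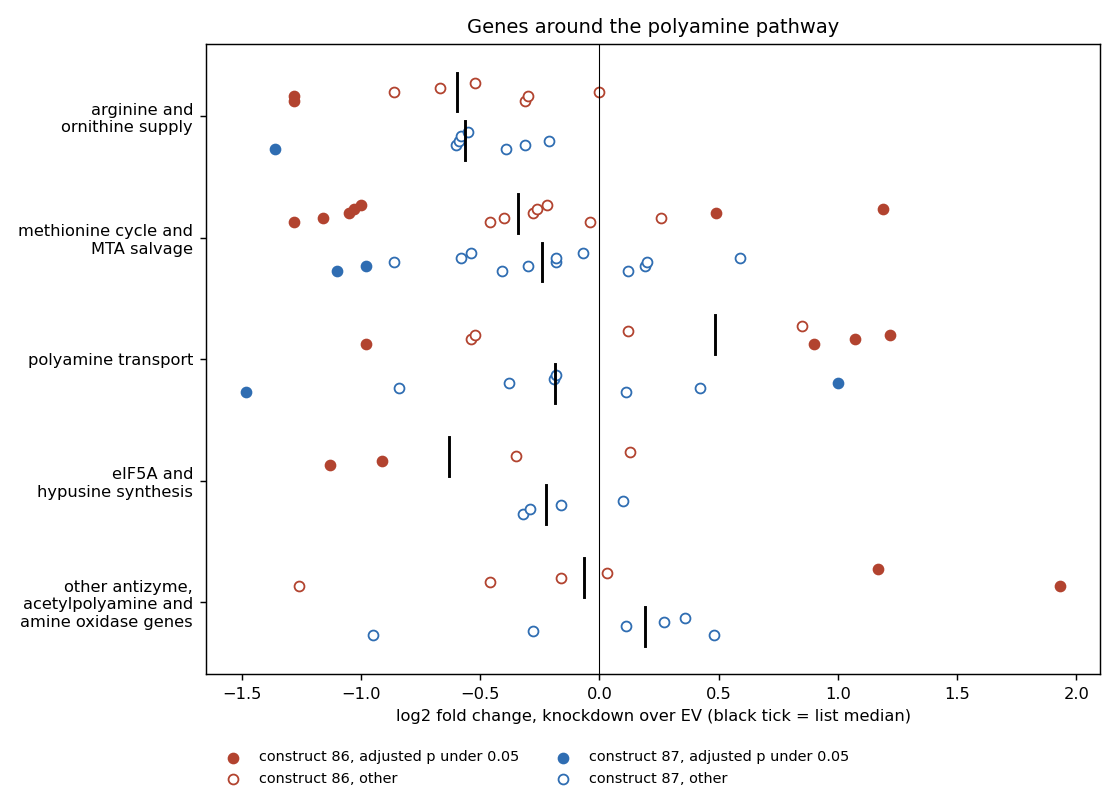
Log2 fold change over EV (x axis) of the 40 tested genes in 5 lists around the polyamine pathway, with construct 86 above construct 87 in each list; each point is a gene, filled where its adjusted p was under 0.05, and the black tick is the list median. The polyamine transport list holds ATP13A3, the 1 gene of the 5 lists past the threshold and higher with both constructs, at 1.22 and 1.00.

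The eIF5A list concerns the translation factor that carries hypusine, an amino acid made from spermidine. Of 5 genes 4 were tested; 2 fell with construct 86 (median -0.63) and 0 passed with construct 87 (median -0.22). EIF5A fell to 7212 ± 717 normalised reads with construct 86 (log2 -1.13, adjusted p = 0.00325) and had 12606 ± 826 with construct 87 (log2 -0.32, adjusted p = 0.373), against 16089 ± 4064 with EV. The difference between constructs was 0.81 (adjusted p = 0.0217; with the length trend removed, adjusted p = 0.0506). EIF5AL1 (log2 -0.91 with construct 86, adjusted p = 0.0473) is a near-identical copy, so its reads cannot be told apart from those of EIF5A with certainty.

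Among the remaining antizyme, acetylpolyamine and amine oxidase genes, 6 of 9 were tested; 2 rose with construct 86 (median -0.07) and 0 passed with construct 87 (median 0.19). AZIN2, a second antizyme inhibitor listed under its older symbol ADC, had 450.4, 979.4 and 1088 normalised reads with construct 86 and 195.5, 258.6 and 215.8 with construct 87, against 220.0, 177.2 and 221.0 with EV. It rose 3.81-fold with construct 86 (log2 1.93, adjusted p = 0.00123), gave 0.11 with construct 87 (adjusted p = 0.842), and differed between the constructs by -1.82 (adjusted p = 0.00217). The construct in which AZIN2 rose was the one in which AZIN1 was lowest. OAZ3, an antizyme described mainly in testis, rose with construct 86 (38.5 ± 9.41, log2 1.17, adjusted p = 0.039) and had 24.6 ± 10.2 with construct 87 (log2 0.48, adjusted p = 0.456), against 16.6 ± 3.79 with EV. AOC2, a copper amine oxidase named after its values were seen, averaged 12.5 ± 7.58 with construct 86 and 34.5 ± 5.35 with construct 87, against 29.9 ± 13.0 with EV. It was higher with construct 87 than with construct 86 (log2 1.52, adjusted p = 0.0306), a call kept in 4 of 9 fits that each left out 1 library and lost without construct 86 replicate 1 or 2 and without each of the 3 construct 87 libraries.

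Of the 14 neighbours named by rule, 13 passed with construct 86, and 6 of them (ASL, GOT1, AHCY, ATP13A3, EIF5A and AZIN2) still passed whichever library was left out. The other 7 were lost in some of the 9 fits, from ADI1, kept in 6 of 9 (lost without EV replicate 1 and without construct 86 replicate 2 or 3), through ASS1, CAV1, GPC1 and SLC12A8, each kept in 5, to OAZ3, kept in 3, and EIF5AL1, kept in 2; all 7 were lost without EV replicate 1 and without construct 86 replicate 2. Of the 3 that passed with construct 87, ENOPH1 was kept in 6 of 9 fits, and ASS1 and ATP13A3 were each kept in 2 of 9, with adjusted p up to 0.167 and 0.153. All 3 were lost without EV replicate 1, construct 87 replicate 1 or construct 87 replicate 2. Between the constructs, ASL, GOT1, AHCY and AZIN2 passed in all 9 fits, and ENOPH1, SLC12A8 and EIF5A in 5 of 9, each lost without construct 86 replicate 3 and without construct 87 replicate 2.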

How the data were processed

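The deposited value per gene and library is a normalised read count, a score for which the authors scaled the reads of each library and rounded them; STAR, featureCounts, Subread and edgeR with build hg19 are named per the submitters' processing notes, and versions and settings are not given in the sources used here. Each of the 9 files held 63023 rows for 60420 gene IDs; in the 14 IDs with conflicting repeats the earlier row was kept. Low deposited values matched rounded whole multiples of a constant estimated per library. The reads recovered with it (11310656 to 15564042 per library) are therefore estimates. The recovered reads, not the deposited values, were scaled across libraries with the TMM formula (30% of log ratios and 5% of abundances trimmed). They were taken as log2(scaled reads + 1) and fitted with limma 3.58.1 (R 4.3.3, variance trend, 6 residual degrees of freedom) in 1 model of all 9 libraries. A gene was tested when above 0 both in the EV or construct 86 files and in the construct 87 files (13825 genes). P-values are two-sided and Benjamini-Hochberg adjusted over all of these, with a threshold of 0.05. Fold changes are on the log2(scaled reads + 1) scale.

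The members and lists were chosen with earlier results of these data known. The genes named were all 10 members, the 6 genes most like OAZ1 and up to 4 passing genes of each list. Those list genes were ranked on the adjusted p of the contrast that averages the 2 constructs. A further 3 list genes that passed between constructs were named after their values were seen, as were AHCYL2, MRI1, SLC7A1 and SLC7A2. SPANX genes checked the target. DOHH and PECAM1 were not analysed here. The main model has no replicate block. Replicate numbers in the labels paired the libraries by the data: over 11320 genes, deviations from group means correlated at 0.171 to 0.809 for the 9 same-numbered pairs and at -0.712 to 0.233 for the 18 other pairs. Values with the replicate number as a block therefore stand beside the results whose call they change. Transcript lengths (13770 genes) came from GENCODE v29. The model was tested on simulated data that held neither the replicate pairing nor the length trend, so that test does not bear on either. Alternatives covered scaling, pseudocount, filters, variance trend, libraries in the fit, the block, a spline in transcript length with 4 degrees of freedom, and leaving out each library.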

Additional observations from a re-analysis of the deposited data

Results flagged for a closer look

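Several genes changed by different amounts under the 2 constructs, as tested by the construct 87 against construct 86 contrast of the limma model; the values are the log2 change with construct 87 minus that with construct 86. Among the polyamine genes these were OAZ2 (1.36), AZIN1 (0.55) and AMD1 (-0.92). Around the pathway all 10 passing list genes were AOC2 (1.52), AHCYL1 (1.22), ASL (1.07), GOT1 (0.87), AHCY (0.82), EIF5A (0.81), ENOPH1 (-0.71), SLC12A8 (-1.24), AZIN2 (-1.82) and SLC47A1 (-2.33). A positive value means a higher level with construct 87 than with construct 86.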

How the results depend on the processing

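The constructs share the EV libraries, 3 libraries a group limit precision, and 3' end reads give no view of protein, frameshifting or polyamine levels. Of the genes' fold changes, 522 kept their direction and side of the threshold, 19 passed newly, 19 no longer passed and 7 reversed; the cause was not tested. Values that reversed did so when 1 library was left out. AMD1 with construct 86 ranged from -0.027 (without construct 86 replicate 1) to 0.28. SAT1 with construct 86 ranged from -0.25 (without EV replicate 2) to 0.62, and with construct 87 from -0.33 (without EV replicate 2; -0.017 without construct 87 replicate 3) to 0.55. Between constructs, SAT1 ranged from -0.32 to 0.17 (without construct 87 replicate 2; 0.039 without construct 86 replicate 3) and OAZ1 from -0.38 to 0.00063 (without construct 87 replicate 1).

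With the replicate block, genes passing were 7647 in place of 4925 (construct 86 against EV), 4283 in place of 1431 (construct 87 against EV) and 6094 in place of 3533 (between constructs); with the length trend removed as well, 7616, 4807 and 6599. Polyamine genes passing with the block were 5 in place of 3 for construct 87 against EV and 6 in place of 3 between constructs, and the same 5 and 6 with the length trend also removed; for construct 86 they were 5, and 6 with the length trend also removed, in place of 4, where SAT1 passed as higher (0.7, in place of 0.30). List genes passing with the block were 14 in place of 5 for construct 87 against EV and 16 in place of 10 between constructs. The block changed no call of a polyamine gene other than those of SMS, ODC1, SRM and SMOX, and that of SAT1 with the length trend removed too. For construct 87 against EV, 2631 genes passed with no filter and 858 with only EV and construct 87 libraries, where 1 polyamine gene passed; list genes passing were 3 at a mean of at least 5 CPM and 8 with the length trend removed.

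Leaving out 1 library gave 3075 to 6036, 378 to 2556 and 2215 to 4212 genes for construct 86 against EV, construct 87 against EV and between constructs, and 3 to 5, 1 to 4 and 2 to 3 polyamine genes. The lowest counts came without construct 86 replicate 2 (3075 and 2215) and without construct 87 replicate 1 (378), and the highest for construct 87 without EV replicate 2 (2556). The OAZ1 to ODC1 ratio spanned -1.43 to -1.2 with construct 86 and -1.08 to -0.83 with construct 87.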

Other observations

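SLC7A7, a subunit of a transporter of arginine and other cationic amino acids, had deposited values of 17, 34 and 20 with construct 86, was listed at 0 in the construct 87 files and had 4, 8 and 6 with EV. GATM, which uses arginine for creatine synthesis, had 20, 15 and 27 with construct 87 and was listed at 0 in the construct 86 and EV files. Both were left out of the tests. SLC7A7 was among 400 IDs with reads listed in EV or construct 86 libraries but in no construct 87 library, and GATM among 453 IDs with the opposite listing. Whether a filter made these 2 sets was not tested.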
